A study of Mus musculus with 8 samples.

Results

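Genes of microglia and macrophages were read in whole spinal cords of *Nfix-/-* embryos and wild-type littermates (labelled *Nfix+/+*), both on a C57Bl/6J background and dissected at E14.5. NFIX is a transcription factor of neural stem cells, and the embryos came from matings of heterozygous parents, so the allele was altered in every cell, macrophages included. RNA of 8 cords, 4 for each genotype and labelled as biological replicates 1 to 4, was hybridised to 8 Affymetrix Mouse Transcriptome Arrays, which give 1 log2 signal for each transcript cluster, the set of probes assigned to 1 transcribed region. The list held 34 genes, chosen by name as markers of microglia, of macrophages at the borders of the nervous system or of white blood cells in general. Of these, 33 had a cluster with 1 gene symbol, out of 30176 symbols on the array, and each had exactly 1 such cluster. The cluster of *Spi1*, which encodes the myeloid transcription factor PU.1, carried a second symbol and was not analysed here.

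Microglia are the resident macrophages of the nervous system. They descend from yolk sac progenitors, enter the neural tube in mid-gestation and depend on the receptor CSF1R. Border-associated macrophages sit in the meninges and around vessels and share many genes with microglia, while *P2ry12*, *Tmem119* and *Siglech* are better known from microglia and *Mrc1*, *Lyve1*, *Pf4* and *F13a1* from the border cells. Several listed genes are not private to macrophages. *Apoe* and *Olfml3* are also expressed outside them, *Apoe* in radial glia and astrocytes, and *Lyve1* also marks lymphatic endothelium. In RNA of a whole cord, more or fewer cells of a type and more or less RNA per cell cannot be told apart.

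*Nfix* itself lay at 8.81 to 8.90 in the *Nfix-/-* arrays, against 9.18 to 9.36 in the wild-type arrays, a log2 difference of -0.39 with a standard error of 0.0544 (limma, adjusted p = 0.00240). Which part of the gene the allele lacks is not given in the sources used here, so its probes may also read remaining transcript. All differences are *Nfix-/-* minus wild-type. With a fold over 1.5 beside the adjusted p, 522 clusters were higher in this direction and 829 lower. Under that pair of thresholds the study gives the opposite balance. The negative-control probe sets had medians between 4.34 and 4.60 in *Nfix-/-* cords, against 4.33 to 4.88 in wild-type cords, the highest in wild-type replicate 2. Their 95th percentile, the upper background mark below, lay between 7.30 and 7.49 in *Nfix-/-* cords, against 7.27 to 7.59 in wild-type cords. As a check of the tissue, all 10 neuronal genes listed lay above the mark on at least 4 arrays, with a mean between 10.79 and 10.87 in *Nfix-/-* cords, against 10.67 to 10.73 in wild-type cords.

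Most macrophage genes gave signals between these background marks. Of the 33, 30 lay above the median of the negative controls on all 8 arrays, but only 5 lay above the upper mark on at least 4 arrays: *Csf1r*, *C1qb*, *Apoe*, *Mrc1* and *Lyve1*. *Gpr34* and *Ptprc* lay below the median of the negative controls on all 8 arrays. A signal below the upper mark was not told apart from background at that level, which does not show that the gene was unexpressed, and differences of such dim signals tend to be compressed.

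Against this background 6 genes were higher in *Nfix-/-* cords and none was lower at an adjusted p under 0.05 (limma with Benjamini-Hochberg adjustment over 65956 clusters). They were the receptor genes *Gpr34*, *Siglech* and *Fcgr3*, the complement gene *C1qc*, the lysosomal protease gene *Ctss* and *Ly86*, a partner of a Toll-like receptor homologue. These are 18.2% of the 33, while 11.5% of all clusters and 13.1% of clusters with 1 symbol were called higher, and 10.5% of all clusters lower. At an unadjusted p under 0.05 from limma, 11 of the 33 were higher and 1 was lower. The share of all clusters under that looser rule was not computed, so these counts are no result about the list. None of the 33 passed both the adjusted p and a fold of 1.5, which 2.05% of all clusters did. The 6 differences ran between 0.18 and 0.37, or 1.13-fold to 1.29-fold, and on no array did any of the 6 genes exceed the upper background mark.

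The median log2 difference over the 33 genes was 0.10, with 27 above 0 (81.8%) and 6 below. Over all clusters the median was 0.025, with 55.1% above 0, and over clusters with 1 symbol 0.053, with 64.1%. It was 0.049, with 64.1% above 0, over the 21162 clusters with 1 symbol in the range of levels of the 33 genes. Over the 11778 clusters that exceeded the upper background mark on at least 4 arrays it was 0.090, with 83.9% above 0. Of the 33 genes, 17 lay above and 16 at or below that last median, though only 5 of the 33 are among those clusters. In 8 genes every *Nfix-/-* array lay above every wild-type array, 24.2% of the 33, against 16.1% of all clusters and 21.1% of those with 1 symbol. In 1 gene, *Apoe*, every *Nfix-/-* array lay below, 3.03% of the 33, against 12% of all clusters and 9.67% of those with 1 symbol. The shares in the higher direction lie near those of the whole array, while those in the lower direction lie under them. The list was chosen with earlier results of these data known, and no test over it was made. These shares are therefore no result about the list, and the account below is of single genes.

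**Figure D1:**
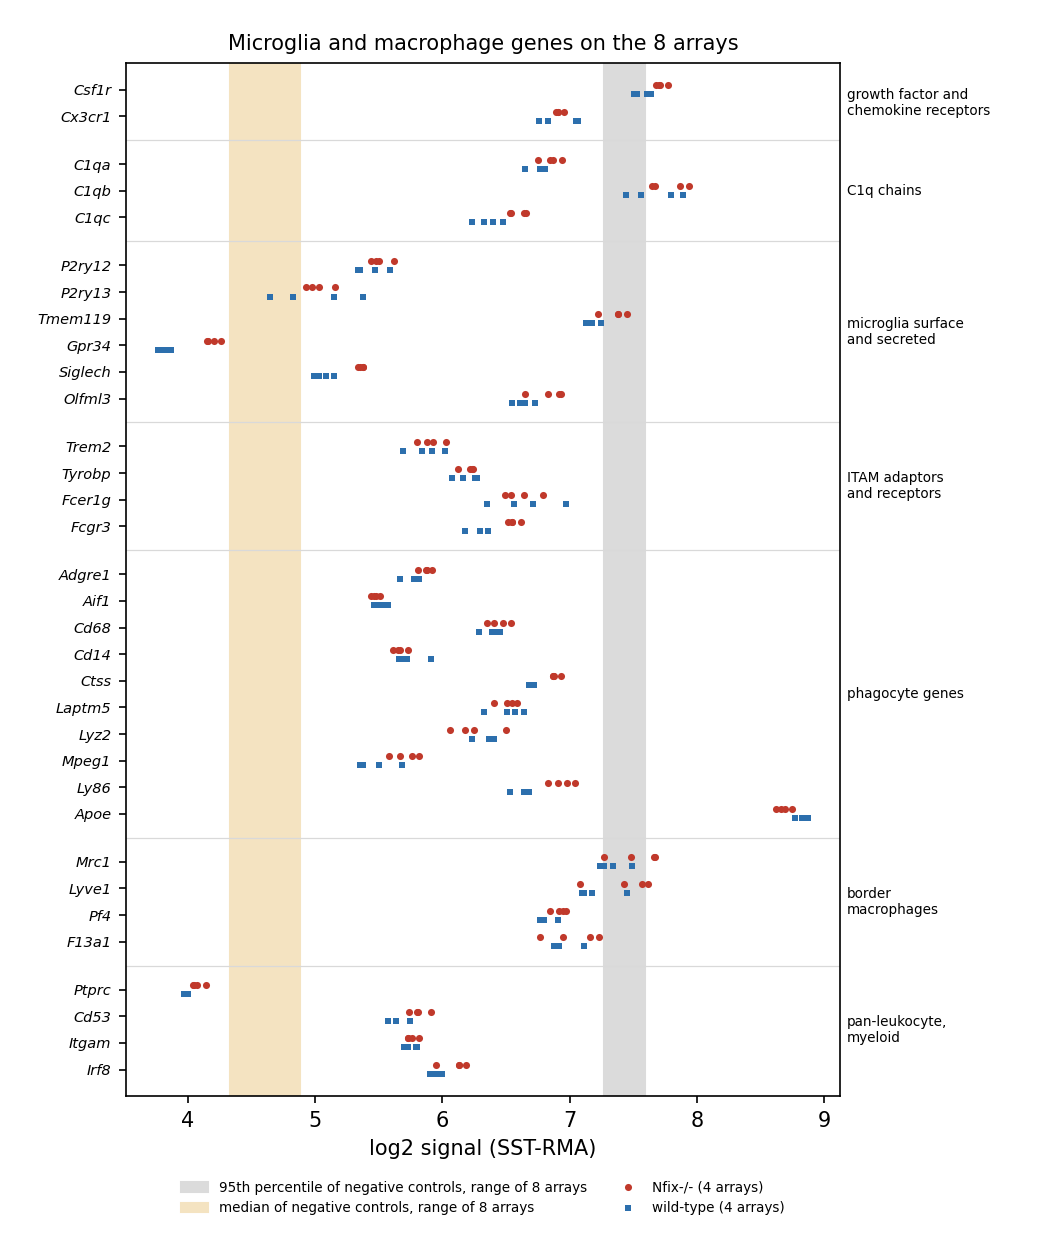
Log2 signal (horizontal axis) of each of the 33 genes (rows, by role) on the 4 *Nfix-/-* arrays (circles, upper line of each row) and the 4 wild-type arrays (squares, lower line). Bands show the range over the arrays of the median and the 95th percentile of the negative controls, and 27 of the 33 genes lie left of the upper band's values on all 8 arrays.

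Receptors for survival and positioning signals were the first group. *Csf1r* encodes the receptor for colony stimulating factor 1 and interleukin 34, without which microglia do not survive. It had log2 signals of 7.77, 7.68, 7.70 and 7.71 in the *Nfix-/-* arrays, against 7.64, 7.51, 7.61 and 7.53 in the wild-type arrays. The groups did not overlap, yet the log2 difference of 0.15 (standard error 0.0482) missed the test at an adjusted p of 0.0632, and it was 0.07 after quantile normalization or cyclic loess. It passed in 4 of 22 alternatives, the methods' t-test among them (adjusted p = 0.0408), but under none of the 3 scalings and with no array left out. *Cx3cr1*, the receptor for the neuronal chemokine fractalkine, had 6.91, 6.96, 6.89 and 6.91 in the *Nfix-/-* arrays, within the wild-type values of 7.07, 6.76, 7.05 and 6.83. Its difference was -0.01, with a 95% interval of -0.18 to 0.17.

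Of the ligands that reach these receptors, none passed the test. *Csf1* had a difference of 0.11 (adjusted p = 0.164), *Il34* of 0.08 (adjusted p = 0.387) and *Cx3cl1* of 0.13 (adjusted p = 0.125). Of the 9 genes listed with them, which also include the TGF-beta genes that keep microglia in their resting state, only *Tgfb3* rose, by 0.22 (adjusted p = 0.0279), and it no longer passed after median scaling or quantile normalization.

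C1q, which starts the classical complement cascade and tags debris and synapses for uptake, is built from 3 chains made by macrophages. The genes of the chains are neighbours on chromosome 4 (mm10), *C1qb* from 136880126 to 136886200, *C1qc* from 136889801 to 136892936 and *C1qa* from 136895916 to 136898844. *C1qc* had 6.66, 6.64, 6.53 and 6.54 in the *Nfix-/-* arrays, against 6.40, 6.23, 6.48 and 6.33 in the wild-type arrays. The groups did not overlap and the difference of 0.24 (standard error 0.0639) passed at an adjusted p of 0.0320. *C1qb* had 7.87, 7.94, 7.67 and 7.65 in the *Nfix-/-* arrays, against 7.80, 7.44, 7.89 and 7.56 in the wild-type arrays, which overlap in part. Its difference of 0.11 had a 95% interval of -0.15 to 0.37, and that of *C1qa* was 0.10, from -0.03 to 0.23. Whether *C1qc* changed apart from its partner chains was not tested. Overlap of the 3 intervals does not decide it, since the chains were read on the same arrays. The call of *C1qc* was also the least stable of the 6. It passed in 10 of 21 alternatives and failed after each of the 3 scalings. It also failed without *Nfix-/-* replicate 1 or 2 or wild-type replicate 1, 2 or 4, at adjusted p of 0.0519 to 0.0842. Counts of alternatives for single genes leave out the fold of 1.5, which none of the 33 passed, and any filter that removed the gene. They include the mean over all clusters of a symbol, which could change no value because each gene had 1 cluster.

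**Figure D2:**
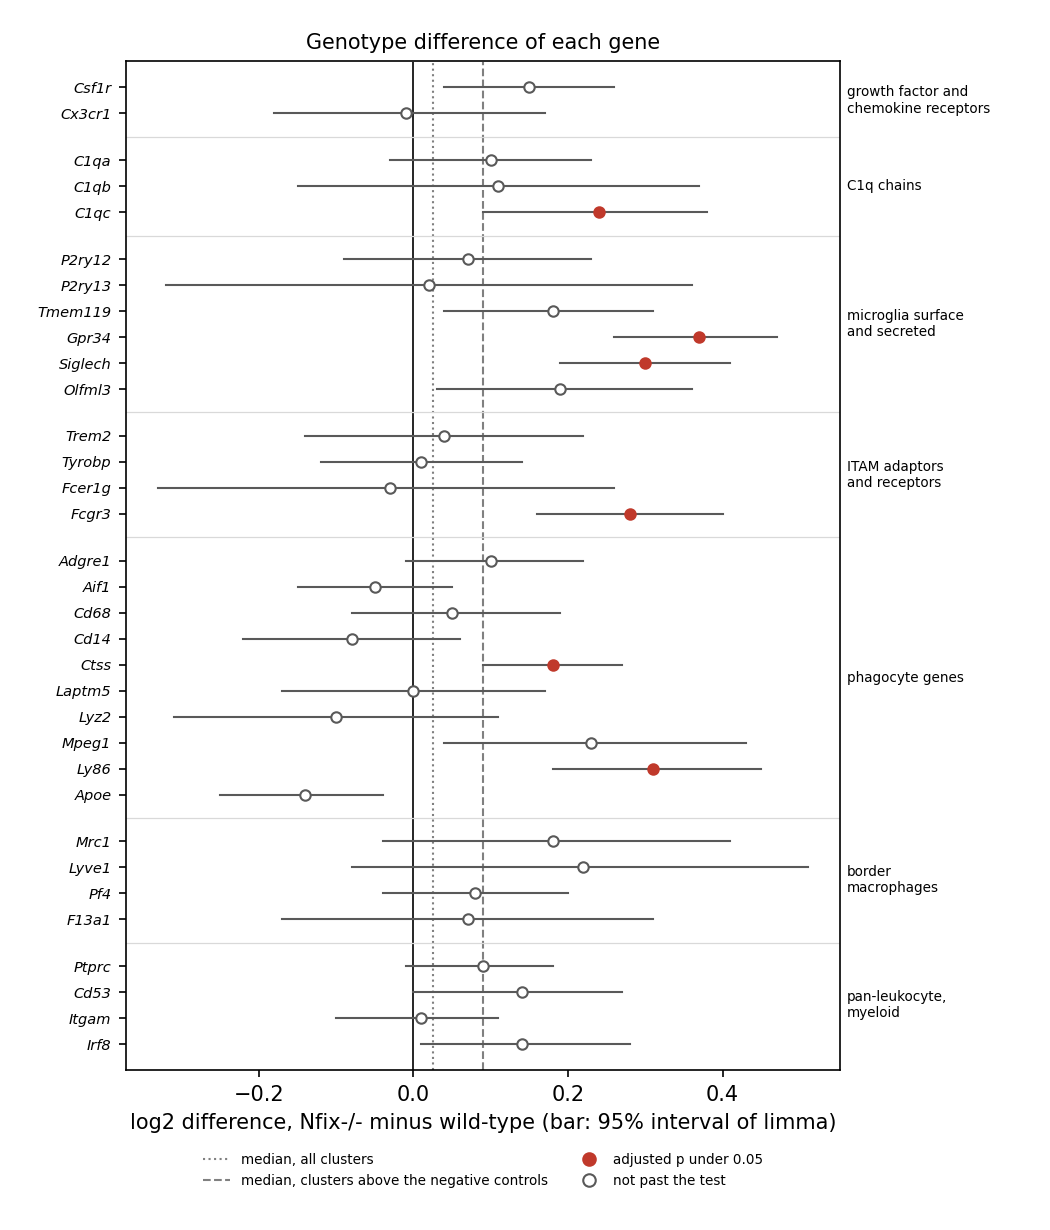
Log2 difference, *Nfix-/-* minus wild-type (horizontal axis), of each of the 33 genes (rows, by role), with its 95% interval from limma over 4 arrays a genotype. Filled points passed the adjusted p, and vertical lines mark 0 and the medians of 0.025 over all clusters and 0.090 over clusters above the negative controls.

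Promoter windows from RefSeq (GRCm38.p6, 250 bases before to 50 after a transcript start) were found for 25 of the 33 genes and were searched for the letters that PU.1, the master factor of the macrophage lineage, is known to bind. GAGGAAGT, on either strand, stood in the windows of 5 of the 25 genes (20%), against 3.69% of 27025 genes. Those 5 were *C1qc* and *Ctss*, called higher here, and *Pf4*, *F13a1* and *Cd53*, which were not. They are shown to let the shared site be seen in its surroundings, 5′ to 3′ on the strand of the gene, with the site in capitals (ACTTCCTC where it lies on the other strand):
*C1qc*, chr4:136893056-136893155, minus strand: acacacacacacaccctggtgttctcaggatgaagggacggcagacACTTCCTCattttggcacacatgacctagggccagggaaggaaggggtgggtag
*Ctss*, chr3:95526738-95526791, plus strand: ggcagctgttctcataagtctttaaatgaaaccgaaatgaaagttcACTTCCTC
*Pf4*, chr5:90772379-90772434, plus strand: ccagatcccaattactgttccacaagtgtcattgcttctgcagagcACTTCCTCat
*F13a1*, chr13:37049192-37049245, minus strand: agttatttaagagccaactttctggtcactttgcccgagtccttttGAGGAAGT
*Cd53*, chr3:106790136-106790189, minus strand: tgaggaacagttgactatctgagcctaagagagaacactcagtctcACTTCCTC
Positions are counted from the transcript start of the window that held the site, which for *C1qc* lies inside the gene span given above. In *C1qc* the site begins 195 bases before that start and in *Pf4* 10 bases before it, while in *Ctss* it spans the start. In *F13a1* it begins at base 15 of the transcript and in *Cd53* at base 7. The composite site of PU.1 and IRF factors, GGAA and GAAA with any pair of bases between them, stood in 1 of the 25 (4.0%), *Cd68*, against 3.16% of all genes. The half-site of NFI proteins, TTGGCA, stood in 6 of the 25 (24.0%), *C1qc*, *P2ry12*, *Aif1*, *Cd68*, *Apoe* and *Irf8*, against 16.1% of all genes, and the full palindrome, TTGGC and GCCAA with 5 bases between them, in none, against 0.0444%. The PU.1 site and the composite site share a GGAA core, as the half-site and the palindrome of NFI share TTGGC, and a match describes letters in a window, not binding.

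Among the 6 genes of the microglial surface and secretome, 2 rose and 4 did not pass. *Siglech*, a sialic acid-binding lectin of microglia, had 5.34, 5.35, 5.38 and 5.38 in the *Nfix-/-* arrays, against 5.15, 4.99, 5.09 and 5.03 in the wild-type arrays. The *Nfix-/-* arrays were tight and all above the wild-type arrays, with a difference of 0.30 (standard error 0.0481, adjusted p = 0.00422) that passed in 21 of 21 alternatives. *Gpr34*, a receptor for lysophosphatidylserine, had 4.21, 4.26, 4.16 and 4.15 in the *Nfix-/-* arrays, against 3.87, 3.81, 3.77 and 3.86 in the wild-type arrays. Its difference of 0.37 (standard error 0.0472, adjusted p = 0.00178) passed in 20 of 20 alternatives, but both sets of signals lay below the median of the negative controls.

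The other genes of this group had differences above 0 that missed the test. *Tmem119*, a membrane protein used to tell microglia from other macrophages, had 7.38, 7.38, 7.45 and 7.22 in the *Nfix-/-* arrays, against 7.25, 7.18, 7.17 and 7.13 in the wild-type arrays. Only *Nfix-/-* replicate 4 fell within the wild-type range, and without it the difference was 0.22 and passed (adjusted p = 0.0236), against 0.18 (adjusted p = 0.0631) with all arrays. *Olfml3*, a secreted matrix protein, behaved alike, at 0.19 (adjusted p = 0.0913) and a low *Nfix-/-* replicate 4. The purinergic receptors by which microglia sense nucleotides overlapped between genotypes. *P2ry12* had a difference of 0.07 (adjusted p = 0.503), and *P2ry13* one of 0.02, with a 95% interval of -0.32 to 0.36 set by a spread of wild-type signals between 4.65 and 5.38.

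TYROBP and FCER1G are the adaptors, with an activation motif known as ITAM, through which TREM2 and the Fc receptors signal uptake. Of the 4 genes in this group, 1 passed. *Fcgr3*, an Fc receptor for immunoglobulin G, had 6.55, 6.52, 6.55 and 6.62 in the *Nfix-/-* arrays, against 6.30, 6.18, 6.36 and 6.30 in the wild-type arrays, with no overlap. The difference of 0.28 (standard error 0.0519, adjusted p = 0.00782) passed in 20 of 21 alternatives. Fc receptor genes are similar in sequence, so signal from a relative of *Fcgr3* cannot be told apart here. The adaptor it needs, *Fcer1g*, had 6.64, 6.79, 6.54 and 6.49 in the *Nfix-/-* arrays, inside the wild-type values of 6.97, 6.35, 6.71 and 6.56, with a difference of -0.03 and a 95% interval of -0.33 to 0.26. *Tyrobp* had a difference of 0.01, from -0.12 to 0.14, and *Trem2*, a lipid receptor, one of 0.04, from -0.14 to 0.22. Downstream of the adaptors, none of 10 measured genes, among them the kinase gene *Syk* at 0.01 (adjusted p = 0.943), passed in either direction.

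The 10 genes of phagocyte surface, lysosome and secretion held 2 rises. *Ctss*, the lysosomal protease cathepsin S, had 6.93, 6.87, 6.87 and 6.88 in the *Nfix-/-* arrays, against 6.72, 6.72, 6.70 and 6.68 in the wild-type arrays. The genotypes did not overlap, and the difference of 0.18 (standard error 0.0403, adjusted p = 0.0156), the smallest of the 6, was lost after quantile normalization (adjusted p = 0.0627). *Ly86*, also named MD-1, had 6.91, 7.04, 6.83 and 6.98 in the *Nfix-/-* arrays, against 6.53, 6.67, 6.68 and 6.64 in the wild-type arrays. Its difference of 0.31 (standard error 0.0603, adjusted p = 0.00856) passed in 21 of 21 alternatives.

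*Apoe*, the apolipoprotein that carries lipid between glia and neurons, was the 1 gene of the list whose *Nfix-/-* arrays all lay below the wild-type arrays. It had 8.69, 8.66, 8.75 and 8.62 in the *Nfix-/-* arrays, against 8.87, 8.77, 8.83 and 8.83 in the wild-type arrays, above the upper background mark on all 8. The difference of -0.14 (standard error 0.0472) missed the test at an adjusted p of 0.0602. After quantile normalization and cyclic loess, which took the median difference of clusters above the upper background mark down to 0.000294 and -0.00596, the difference of *Apoe* was -0.24 (adjusted p = 0.0252) and -0.25 (adjusted p = 0.0116), and after median scaling it was -0.12 (adjusted p = 0.244).

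The remaining phagocyte genes did not pass. *Mpeg1*, a pore-forming protein of macrophages, had a difference of 0.23 (adjusted p = 0.0861), and *Adgre1*, an adhesion receptor used as a macrophage marker, one of 0.10 (adjusted p = 0.175). *Cd68*, a lysosomal glycoprotein, and *Laptm5*, a lysosomal membrane protein, had differences of 0.05 and 0.00. *Aif1*, which encodes IBA1, the usual immunostain for microglia, had 5.48, 5.46, 5.51 and 5.44 in the *Nfix-/-* arrays and 5.51, 5.46, 5.55 and 5.57 in the wild-type arrays. Its difference of -0.05 had a 95% interval of -0.15 to 0.05. The endotoxin co-receptor gene *Cd14* lay at -0.08 and the lysozyme gene *Lyz2*, which has a near-identical copy, at -0.10, each with an interval across 0.

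None of the 4 genes of border-associated macrophages passed, and 3 of them varied alike over the arrays. *Mrc1*, the mannose receptor, had 7.27, 7.66, 7.48 and 7.67 in the *Nfix-/-* arrays, against 7.49, 7.34, 7.27 and 7.24 in the wild-type arrays. *Lyve1*, a hyaluronan receptor, had 7.08, 7.62, 7.43 and 7.57 in the *Nfix-/-* arrays, against 7.45, 7.11, 7.18 and 7.10 in the wild-type arrays. *F13a1*, a chain of coagulation factor XIII, had 6.77, 7.16, 6.95 and 7.23 in the *Nfix-/-* arrays, against 7.11, 6.88, 6.91 and 6.92 in the wild-type arrays. In all 3 genes *Nfix-/-* replicate 1 was the lowest of its genotype and replicates 2 and 4 the highest, and wild-type replicate 1 stood above the other wild-type arrays.

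The mean over these 3 genes, grouped after their values were seen, was 7.04, 7.48, 7.29 and 7.49 in the *Nfix-/-* arrays, against 7.35, 7.11, 7.12 and 7.09 in the wild-type arrays. Within a genotype it spanned 0.450 in *Nfix-/-* and 0.262 in wild-type. The differences between genotypes, 0.18 for *Mrc1* (adjusted p = 0.214), 0.22 for *Lyve1* (adjusted p = 0.268) and 0.07 for *F13a1* (adjusted p = 0.680), were no larger than this spread. Without *Nfix-/-* replicate 1 they were 0.27, 0.33 and 0.16 (adjusted p = 0.0614, 0.0573 and 0.258). *Pf4*, a chemokine of platelets and border macrophages, did not share the pattern, with 6.97, 6.92, 6.85 and 6.95 in the *Nfix-/-* arrays and 6.91, 6.80, 6.91 and 6.77 in the wild-type arrays.

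Border macrophages live in the meninges, and 5 of 11 meningeal and fibroblast genes were called higher in *Nfix-/-* cords, against 11.5% of all clusters, at a median difference of 0.25. After quantile normalization 3 were, at a median of 0.15, and after cyclic loess 3, at 0.14. The mean of this list was 8.36, 8.50, 8.43 and 8.42 in the *Nfix-/-* arrays, against 8.25, 8.18, 8.19 and 8.19 in the wild-type arrays. Replicate 1 was the lowest *Nfix-/-* array and the highest wild-type array here too. The rest of the pattern differed, since *Nfix-/-* replicate 4 lay below replicate 3, but above it in *Mrc1*, *Lyve1* and *F13a1*. The endothelial list averaged 7.72, 7.79, 7.71 and 7.62 in the *Nfix-/-* arrays, against 7.64, 7.55, 7.63 and 7.66 in the wild-type arrays, with 3 of 12 genes called higher, 1 of them after quantile normalization and 2 after cyclic loess. The part of meningeal or vascular tissue left on the cords in these values was not tested.

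Genes of white blood cells in general held no call. *Ptprc*, the pan-leukocyte antigen CD45, had 4.14, 4.07, 4.04 and 4.05 in the *Nfix-/-* arrays, against 3.99, 3.97, 3.99 and 4.00 in the wild-type arrays, which did not overlap but lay below the median of the negative controls (difference 0.09, adjusted p = 0.168). *Irf8*, a transcription factor that microglia need, had 6.19, 6.13, 6.13 and 5.95 in the *Nfix-/-* arrays, against 5.98, 5.90, 6.00 and 5.94 in the wild-type arrays. Its difference of 0.14 had an adjusted p of 0.122. The tetraspanin gene *Cd53* had a difference of 0.14 (adjusted p = 0.136), and *Itgam*, the integrin CD11b, one of 0.01, with a 95% interval of -0.10 to 0.11.

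The deviations of single arrays were shared by many of the genes. Wild-type replicate 2 was the lowest wild-type array in 20 of the 33 genes (60.6%), against 38.8% of all clusters. Replicate 1 was the highest wild-type array in 18 of the 33, against 26.1% of all clusters. In 18 genes (54.5%) wild-type replicates 1 and 3 both stood above replicates 2 and 4, against 27.7% of all clusters, a split chosen after the values were seen. They include *Csf1r*, *Cx3cr1*, the C1q chains, *Trem2*, *Tyrobp*, *Fcer1g*, *P2ry12* and *P2ry13*. In *Fcer1g* the wild-type arrays spanned 0.621 and in *P2ry13* 0.731, more than any genotype difference in the list. In the *Nfix-/-* arrays replicate 4 was the lowest in 15 genes (45.5%), against 35.3% of all clusters. Replicates 2 and 4 both stood above 1 and 3 in 5 genes, *Mrc1*, *Lyve1* and *F13a1* with *Ly86* and *Cd53*, which are 15.2% of the 33, against 16.1% of all clusters and 29.3% of those above the upper background mark, so this split was not particular to them. Wild-type replicate 2 had the highest negative controls of the 8 arrays, and the part of that in its low values was not tested. Without it 5 genes were called higher, with *C1qc* lost, and the median over the 33 was 0.07.

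**Figure D3:**
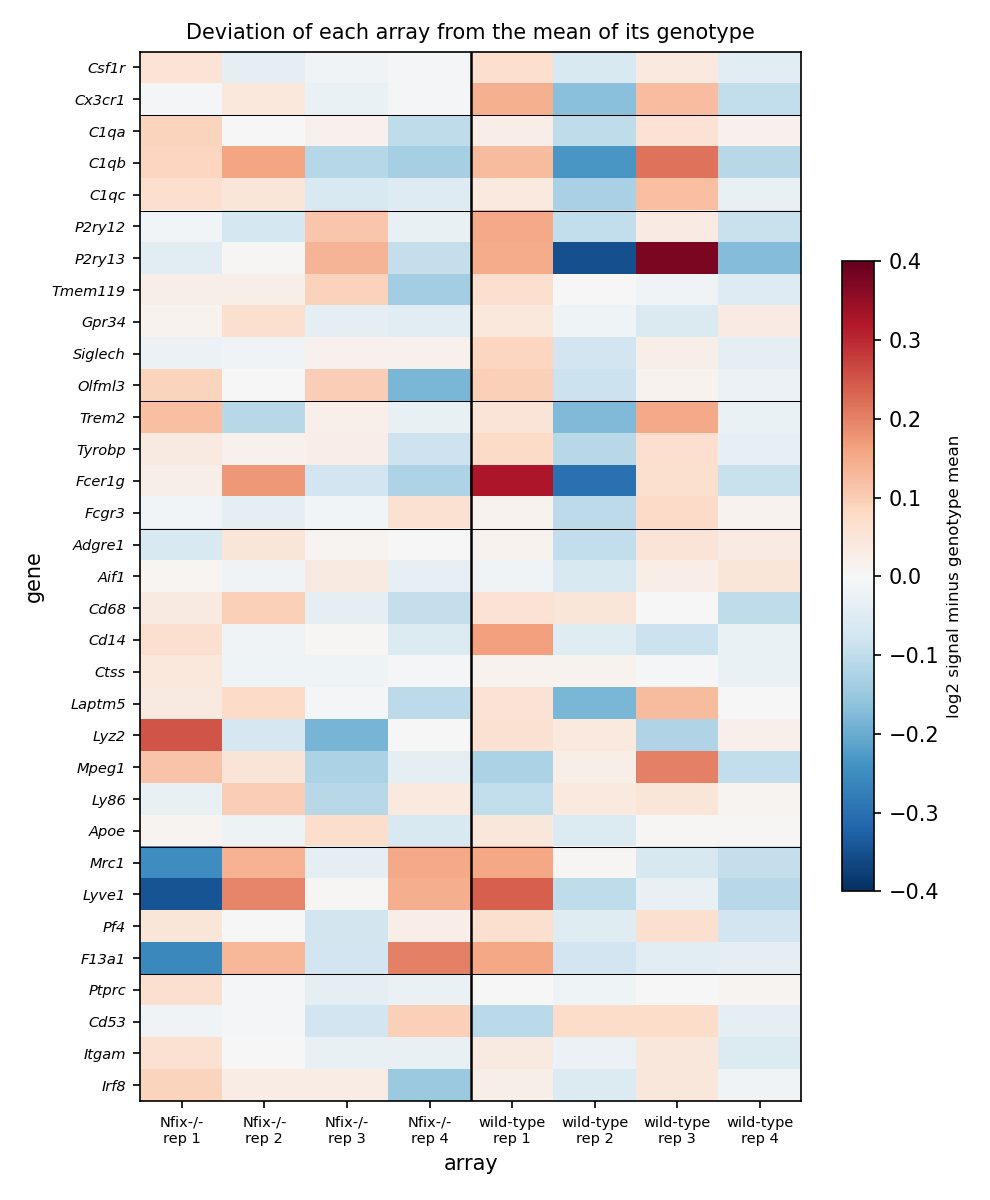
Log2 signal minus the mean of the genotype (colour) for each of the 33 genes (rows, by role) on the 4 *Nfix-/-* arrays (left) and the 4 wild-type arrays (right). *Mrc1*, *Lyve1* and *F13a1* are low in *Nfix-/-* replicate 1, and many microglial genes are low in wild-type replicates 2 and 4 against 1 and 3.

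The calls were then set against the scaling of the arrays, because 83.9% of the clusters above the upper background mark had differences above 0. The positive-control probe sets also had higher medians in *Nfix-/-* cords, between 8.72 and 8.74, against 8.60 to 8.68 in wild-type cords. The part of this offset in the differences of the genes was not tested. After median scaling, quantile normalization and cyclic loess 5, 4 and 5 genes were called higher and 0, 1 and 1 lower. *Gpr34*, *Siglech*, *Fcgr3* and *Ly86* passed as deposited, after subtraction of each array's median, after quantile normalization and after cyclic loess. *C1qc* passed only as deposited. Of these 3 scalings *Ctss* failed only after quantile normalization. A further scaling, by the median of clusters above the upper background mark, ended the calls of *Ctss* (adjusted p = 0.215) and *Fcgr3* (adjusted p = 0.0508). *Apoe* passed after quantile normalization and cyclic loess, as the only gene of the list called lower under any alternative.

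**Figure D4:**
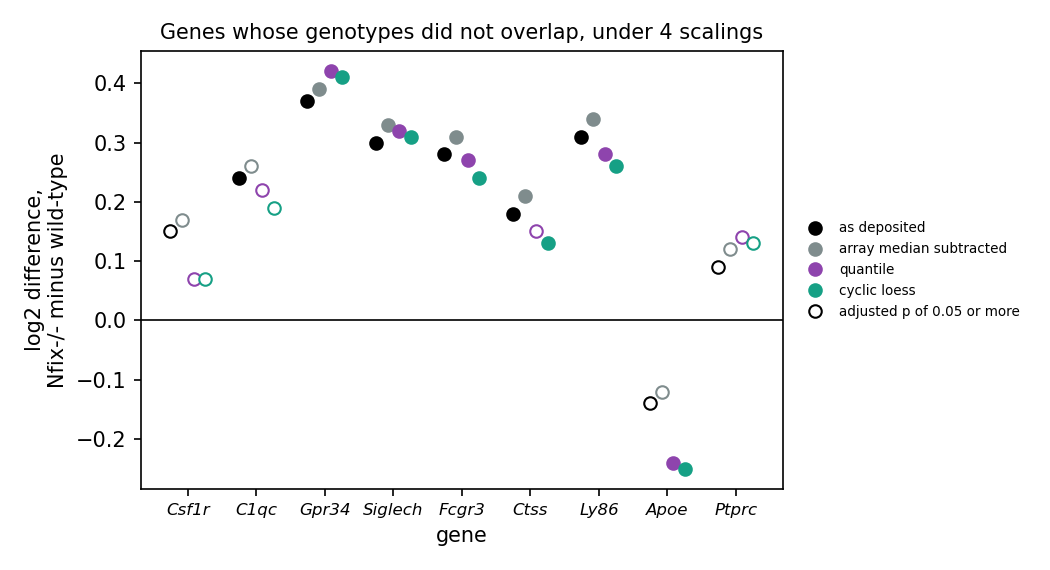
Log2 difference, *Nfix-/-* minus wild-type (vertical axis), of the 9 genes whose genotypes did not overlap, with the values as deposited and after 3 other scalings (colours). Filled points passed an adjusted p under 0.05, as *Gpr34*, *Siglech*, *Fcgr3* and *Ly86* did under all 4.

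Other genes of macrophages were listed by role, and their counts stand against 11.5% of all clusters called higher and 10.5% called lower. Of 32 further genes of microglia and macrophages 5 rose and none fell, at a median of 0.02. *Gpr84*, a receptor for medium-chain fatty acids, had 5.33, 5.29, 5.23 and 5.07 in the *Nfix-/-* arrays, against 4.72, 4.42, 4.46 and 4.87 in the wild-type arrays, a difference of 0.61 (standard error 0.110, adjusted p = 0.00655) that passed under the 3 scalings, as did the RNA sensor gene *Tlr7* at 0.31. *Fcrls*, an Fc receptor-like gene of microglia, rose by 0.21 and failed after quantile normalization. All 5 lay below the upper background mark on all 8 arrays.

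Of 16 genes of phagocytosis and lipid handling 4 rose and none fell, at a median of 0.09. *Ctsl*, the lysosomal protease cathepsin L, had 8.82, 8.86, 8.80 and 8.67 in the *Nfix-/-* arrays, against 8.45, 8.41, 8.42 and 8.50 in the wild-type arrays, above the upper background mark on all 8. Its difference of 0.34 (standard error 0.0538, adjusted p = 0.00378) passed under the 3 scalings. The growth factor gene *Igf1* and the lysosomal tetraspanin gene *Cd63* rose by 0.21 and 0.17, and both failed after quantile normalization and cyclic loess. None of these 3 genes is private to macrophages.

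Of 13 myeloid transcription factors *Mef2c*, also a factor of neurons and vessels, rose by 0.20 and failed after quantile normalization and cyclic loess. *Sall1*, which microglia share with neural progenitors, was lower, with 7.96, 7.94, 7.98 and 7.77 in the *Nfix-/-* arrays, against 8.19, 8.06, 8.23 and 8.30 in the wild-type arrays (difference -0.28, adjusted p = 0.0229, lost after median scaling at 0.0806). None of 9 complement genes other than C1q passed. Of 12 further genes of border macrophages *Gas6*, a ligand of the uptake receptors AXL and MERTK, rose by 0.15 and failed under all 3 scalings. Over 13 lists of macrophage, leukocyte and inflammation genes together, 18 of 151 genes were higher and 3 lower, at a median of 0.06, a count of higher genes near the 11.5% of all clusters.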

How the data were processed

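The authors hybridised RNA of whole E14.5 spinal cords to 8 arrays, used Expression Console of Affymetrix to turn the scans of all 8 into gene-level values by SST-RMA, and named genome version mm10. Their deposited table gives log2 values, 1 per transcript cluster and array, which were used as they are. Of 72688 rows, 6732 control probe sets were left out. Clusters were named from the platform annotation, where 30638 carried 1 symbol, 2176 several and 33142 none, and the positions are those of GRCm38.p6, the assembly of mm10. The study's text states fewer mice for each genotype than the labels, which were followed.

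Genotypes were compared over 65956 clusters by lmFit and eBayes of limma 3.58.1 (R 4.3.3) and Benjamini-Hochberg adjustment, and the fit was tested on simulated data. With 4 arrays a genotype their number limits the precision. Printed signals cover the genes called, those not overlapping between genotypes, those above the negative controls' 95th percentile on at least 4 arrays and those with the highest signals of each role. *F13a1*, *Pf4*, *Cx3cr1*, *Aif1* and the pattern over arrays were added after their values were seen. Of other lists, up to 3 called genes by lowest p were named, and *Csf1*, *Il34*, *Cx3cl1*, *Syk* and the Y-linked genes were named without a call. The 34 genes and all lists were chosen with earlier results of these data known. Alternatives covered scaling, filters, the prior, array weights, the methods' t-test, a replicate block, a Y-linked covariate, each array left out and a fold of 1.5.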

Additional observations from a re-analysis of the deposited data

Results flagged for a closer look

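In groups of 4 arrays, an array far from the others by Dixon's 95% critical value was looked for in 146 groups, over the 33 genes, the means of their roles and the called genes of the other lists. None of the 33 genes had such an array, and 3 other groups did, fewer than the 1 in 20 that chance gives. *Sall1* was 7.77 in *Nfix-/-* replicate 4, against 7.94 to 7.98 in the other *Nfix-/-* arrays. Wild-type replicate 2 was 5.16 for *Cd3e*, a T-cell receptor subunit, where the other wild-type arrays lay between 5.25 and 5.26. It was 8.06 for *Hes5*, a Notch target of progenitors, where they lay between 8.14 and 8.15.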

How the results depend on the processing

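Of the 33 genes, 4 to 8 were called higher under the alternatives that kept all 8 arrays and tested at least 31 of the genes at the adjusted p alone, other than the added scaling below, and 5 to 9 with each array left out. The count was 1 among the 5 genes left by the filter at the 95th percentile of the negative controls (*Csf1r*), 0 with a fold of 1.5, and 3 when each array's median over clusters above the negative controls was subtracted, an alternative chosen after seeing the data, which left *Gpr34*, *Siglech* and *Ly86* and called 4.62% of all clusters higher and 17.2% lower. The mean over all clusters of a symbol changed nothing, since each gene had 1. The count of genes called lower was 1, *Apoe*, after quantile normalization, cyclic loess and that added scaling, with the same filter, with clusters of 1 symbol only, with a trended prior, with array weights and with the methods' t-test, and it was 0 to 0 with each array left out. The median difference was 0.07 to 0.12 with each array left out and 0.01 under the added scaling. No alternative turned the direction of a called gene. Deviations of same-numbered arrays correlated at 0.470 for replicate 1 and at -0.151 to 0.0401 for the other numbers, so the numbers were not taken to pair the samples, and with the replicate block 4 genes were called higher, without *C1qc* and *Ctss*. The mean of the Y-linked genes *Uty*, *Eif2s3y* and *Kdm5d* was 6.55, 6.78, 3.83 and 3.77 in the *Nfix-/-* arrays, against 3.35, 3.33, 5.76 and 3.33 in the wild-type arrays. *Xist*, which is expressed in females, was 4.17, 4.33, 10.4 and 11.12 in the *Nfix-/-* arrays, against 10.63, 11.01, 4.25 and 10.69 in the wild-type arrays. By both, *Nfix-/-* replicates 1 and 2 and wild-type replicate 3 were male. Sex, which the labels do not give, was thus not balanced between genotypes. With the mean of the Y-linked genes as a covariate 5 genes were called higher, without *C1qc*. *Gpr34*, which lies on the X chromosome, kept its call at 0.36 (limma, adjusted p = 0.00828). The median difference was then 0.09, and 5 uncalled genes changed sign, *C1qb* among them at -0.02. Signals near the negative controls limit what the dim genes can show.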

Other observations

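Of 13 genes of inflammatory cytokines and chemokines, *Tnf* and the inflammasome gene *Nlrp3* were higher in *Nfix-/-* cords and *Ccl4*, a chemokine, was lower. *Tnf* had log2 signals of 5.62, 5.48, 5.46 and 5.41 in the *Nfix-/-* arrays, against 5.1, 4.98, 5.2 and 5.18 in the wild-type arrays, a difference of 0.38 (adjusted p = 0.00664 from limma). *Nlrp3* had a difference of 0.25 (adjusted p = 0.0161), and both passed under the 3 scalings, while *Ccl4*, at -0.16, failed under each. All 3 lay below the upper background mark on all 8 arrays. Of 12 genes of the leukocyte cytoskeleton and signalling, *Was*, the Wiskott-Aldrich protein that drives actin branching in blood cells, rose by 0.35 (adjusted p = 0.0213) and passed under the 3 scalings, and *Dock8* rose by 0.17 and failed under each.

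None of 3 monocyte, 9 neutrophil and 7 mast cell and megakaryocyte genes passed, at medians of -0.04, -0.03 and -0.01. Of 8 lymphocyte genes, *Cd79a*, a B-cell receptor chain, was lower by the test at -0.33 (adjusted p = 0.0129) and *Cd3e* and *Ms4a1* were higher at 0.23 and 0.21, and the 8 genes stayed below the upper background mark on all arrays. None of 6 red blood cell genes passed, with a list mean between 7.34 and 7.45 in *Nfix-/-* cords, against 7.24 to 7.58 in wild-type cords. Of the lists of neighbouring tissues, set against 11.5% of all clusters called higher and 10.5% lower, 1 of 9 pericyte and 3 of 10 neuronal genes were higher, 1 of 9 progenitor genes was lower, 2 of 9 skeletal muscle genes were higher and 1 lower, and the 6 sensory ganglion and Schwann cell genes held no call at a median of 0.27. After quantile normalization no neuronal or muscle gene was called higher, and after cyclic loess no neuronal gene and 1 muscle gene were.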
